A study of Mus musculus with 8 samples.

Results

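Tumour-associated macrophages (TAM) that carried the label of myeloma cells were set against all other bone marrow macrophages of the series. The 2 libraries of TAM in contact with myeloma were compared with 4 others as 1 set, 2 of TAM not in contact and 2 of macrophages from naive mice, out of 8 libraries in all. The genes described were chosen by position: a gene needed at least 5 CPM (counts scaled to the total of the library) in at least 2 of the 6 macrophage libraries, and both of its values in TAM in contact had to lie outside the range of the 4 others. The count table holds 47643 genes. Of these, 10322 met the CPM minimum, and 2822 met the rule, 1303 above all others and 1519 below. All donors were wild-type (WT) mice of the B6 strain with no further treatment. For the TAM groups, cells of Vk*MYC myeloma, a mouse tumour of plasma cells, had been put into the tibia after purification by CD138, and carried green fluorescent protein (GFP). The macrophage gate was F4/80 high with CD11b low, and GFP divided those of tumour-bearing mice into GFP+ cells (in contact, n = 2) and GFP- cells (not in contact, also called GFP- TAM, n = 2). The third group came from naive mice (n = 2), and the last 2 libraries held plasma cells, for which the sample names do not tell myeloma from polyclonal cells. The labels name mouse 1 or mouse 2 for each TAM library and no animal for the naive libraries. The sources used here do not give age or the day after injection. P-values reflect only how far these libraries spread, which may be technical for the naive pair.

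Resident macrophages of the bone marrow sit among stromal cells and around developing red cells. They clear dying cells and expelled nuclei, break down heme and return the iron to the blood, and carry a set of scavenger receptors, lectins and adhesion molecules by which they are recognised. Monocytes that leave the blood can also become macrophages, and then first carry monocyte genes such as those of chemokine receptors and integrins.

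Total counts were 44491870 and 42134293 in TAM in contact, 41357964 and 31047348 in GFP- TAM, and 46873056 and 28887725 in naive macrophages (replicate 1 first, then replicate 2, throughout). A library stood apart in each TAM group. TAM in contact replicate 2 had 88.4 CPM of the Y-linked gene Ddx3y, where replicate 1 had 0 counts, TAM not in contact had 0 and 0.258 CPM and naive macrophages 0.235 and 0.139 CPM. Its Xist count was 0, against 17.5 to 53.8 CPM in the other macrophage libraries, so the TAM libraries labelled mouse 2 do not come from 1 animal. TAM not in contact replicate 2 had 9.13% of its counts on immunoglobulin genes, against 0.166% to 0.632% in the other macrophage libraries. Results are therefore also given without these libraries. Of the defining macrophage genes, Csf1r, Cd68, Ptprc and the F4/80 gene Adgre1 were present in every macrophage library, at 519 CPM or more. The other defining genes were lower in 1 group each: Mertk had 42.7 and 15.6 CPM in TAM in contact against at least 340 CPM elsewhere, and the CD11b gene Itgam had 73.0 and 84.0 CPM in GFP- TAM against at least 215 CPM elsewhere.

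Membership in the 2 sets was common, and distance set them apart. Of genes over the CPM minimum 12.6% lay above and 14.7% below, 27.3% in all. The gap, the log2 ratio between the nearest TAM in contact value and the nearest other value on CPM + 0.5, had a median of 0.28 for genes below and 0.15 for genes above. A gap of at least 2-fold was found for 253 genes below and 33 above, and one of at least 4-fold for 95 below and 7 above. At 8-fold or more there were 37 below and 0 above, and the largest gaps were 4.94 below and 2.62 above. For 755 genes below and 781 above, the TAM in contact libraries differed from each other by more than the gap. At the edge, the RNA helicase gene Ddx28 lay just inside the upper rule, with 21.7 and 35.3 CPM in TAM in contact and at most 21.7 CPM elsewhere, and the scaffold gene Iqgap1 just outside, with 1114 and 1182 CPM in TAM in contact and at most 1114 CPM elsewhere. For the lower rule these were Dcaf4, inside with 11.2 and 11 CPM in TAM in contact against at least 11.2 CPM elsewhere, and Cd300lf, outside with 220 and 98.3 CPM against at least 220 CPM.

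**Figure D1:**
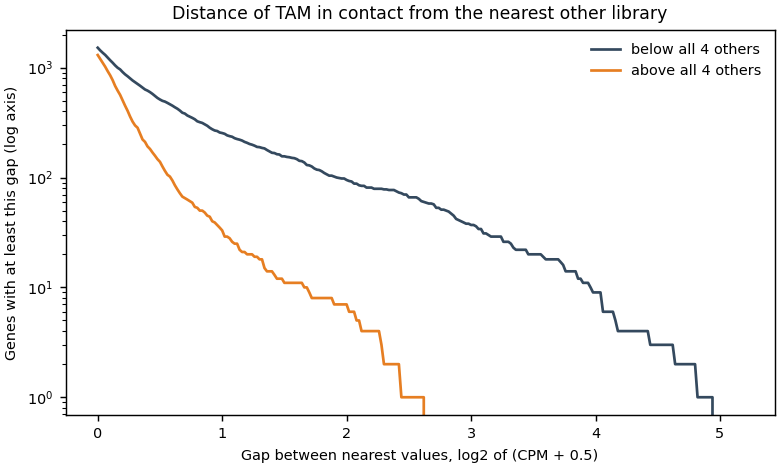
Number of genes (log axis) whose TAM in contact values lie outside the range of the 4 other macrophage libraries by at least the gap on the x axis, in log2 of CPM + 0.5, for genes below and above. The curve of genes above ends at 2.62 and that of genes below at 4.94.

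The balance of both sets depended on scaling, and the long gaps did so less. With CPM scaled by TMM factors 1603 genes lay above and 1262 below, against 1303 and 1519 with plain CPM, but gaps of at least 2-fold still numbered 31 above and 237 below. Without TAM in contact replicate 2 the sets held 1904 and 1903 genes, and without TAM not in contact replicate 2 they held 1578 and 1779. The upper set was mostly higher in 1 of its libraries: 975 of its 1303 genes (74.8%) were higher in replicate 2 of TAM in contact than in replicate 1, against 45.9% of all genes over the CPM minimum, and in the lower set the share was 25.4%. The upper set took 20.4% and 26.0% of counts in TAM in contact, 14.5% and 10.1% in GFP- TAM, and 13% and 14.4% in naive macrophages. The lower set took 7.04% and 6.0% in TAM in contact, 17.6% and 24.9% in GFP- TAM, and 20.6% and 13.3% in naive macrophages.

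Outside the range is a description, and a test was made apart from it, in edgeR's quasi-likelihood model with the 3 groups and TAM in contact set against the mean of both others. Of 15522 genes tested 32 were called (0.206%), 1 higher (0.00644%) and 31 lower (0.2%) in TAM in contact. Their log2 fold changes were 3.63 for the 1 higher gene and between -8.36 and -3.33 for those lower. The adjusted p-values lay between 0.0477 and 0.0496, so each call was close to the threshold of 0.05, and the same test called 0 genes without TAM in contact replicate 2 (784 at an unadjusted p under 0.05) and 0 without TAM not in contact replicate 2 (3134). All 32 were also called by DESeq2, which called 434 genes higher and 946 lower but made 103 false calls on simulated counts, where edgeR made 2. The simulated counts used edgeR's own estimates of spread, so the number of false calls on the real libraries may differ. Set against 1 group at a time, 26 of the 32 passed against naive macrophages and 0 against TAM not in contact. Both comparisons share the TAM in contact libraries. For 16 of the 32, another annotated gene overlaps the locus, as for 54.5% of all genes over the CPM minimum. The kit does not mark the strand, so reads of such pairs cannot be fully told apart.

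The lower set was led by transcripts of resident macrophages. Fcna, the gene of ficolin A, a lectin that starts complement (ENSMUSG00000026938.10, GRCm38 chr2:25624666-25628030, minus strand), had the widest gap. It fell to 17.3 and 19.3 CPM in TAM in contact, against 609 and 924 CPM in GFP- TAM and 2426 and 1176 CPM in naive macrophages. Both TAM in contact libraries were low and close together, and the nearest other library was 31.5-fold higher. The log2 fold change over the 4 others was -5.91 ± 0.55 (SE, 2 libraries against 4, adjusted p = 0.0477). Over TAM not in contact alone it was -5.36 ± 0.55 and over naive macrophages -6.46 ± 0.58. In bulk samples fewer cells of a type and less RNA per cell cannot be told apart, here and in all results that follow.

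Cd5l, whose product is secreted by tissue macrophages (ENSMUSG00000015854.7, chr3:87357881-87371073, plus strand), fell to 6.70 and 3.82 CPM in TAM in contact, against 213 and 200 CPM in GFP- TAM and 1435 and 614 CPM in naive macrophages. The groups formed 3 separate levels, with TAM not in contact between the others. Its log2 fold change was -6.37 ± 0.60 (adjusted p = 0.0477). The potassium channel gene Kcna2 (chr3:107101146-107115005, plus strand) fell to 0.921 and 1.19 CPM in TAM in contact, against 42.2 and 64.7 CPM in GFP- TAM and 94.7 and 41.1 CPM in naive macrophages. Here both other groups overlapped, and TAM in contact stood alone (-5.74 ± 0.54, adjusted p = 0.0477). Stab2, a scavenger receptor for hyaluronan that also binds dying cells (chr10:86841198-87008025, minus strand), fell to 4.38 and 3.11 CPM in TAM in contact, against 105 and 172 CPM in GFP- TAM and 264 and 126 CPM in naive macrophages (-5.37 ± 0.51, adjusted p = 0.0477).

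In the resident macrophage list 21 of 27 genes over the CPM minimum lay below and 0 above, where 14.7% of all genes lay below and 12.6% above. Of the 27 genes 6 fell (Cd5l, Epb41l3, Fcna, Igf1, Mrc1 and Stab2), and the median log2 fold change was -3.0, beside 0.03 over all genes tested. The mannose receptor gene Mrc1 fell to 46.7 and 24.5 CPM in TAM in contact, against 635 and 753 CPM in GFP- TAM and 1865 and 1080 CPM in naive macrophages. Epb41l3, of a linker of membrane and cytoskeleton, fell to 11.1 and 8.45 CPM in TAM in contact, against 288 and 256 CPM in GFP- TAM and 302 and 157 CPM in naive macrophages. Of the list's members that did not pass, Vcam1, the adhesion molecule that binds the integrin of Itga4, had 260 and 153 CPM in TAM in contact, 5063 and 5805 CPM in GFP- TAM and 8636 and 4335 CPM in naive macrophages (-4.77 ± 0.61, adjusted p = 0.0663). Its nearest other library was 16.7-fold higher than the nearest TAM in contact library. The phosphatidylserine receptor gene Timd4 had 2.02 and 0.617 CPM in TAM in contact, against 17.5 and 30.4 CPM in GFP- TAM and 141 and 72.5 CPM in naive macrophages (-5.18 ± 0.68, adjusted p = 0.0693). Marco, a scavenger receptor gene named here after its values were seen, had 0 counts in both TAM in contact libraries, which allows up to 0.0674 and 0.0712 CPM, against 0.556 and 0.161 CPM in GFP- TAM and 8.32 and 7.65 CPM in naive macrophages. The F4/80 gene Adgre1, by which the cells were sorted, was barely inside the rule, with 519 and 550 CPM in TAM in contact, 1223 and 600 CPM in GFP- TAM and 1134 and 587 CPM in naive macrophages (-0.65 ± 0.45, adjusted p = 0.517). With any single library left out, 20 to 23 members of this list lay below, 22 without TAM in contact replicate 2 and 21 without TAM not in contact replicate 2.

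**Figure D2:**
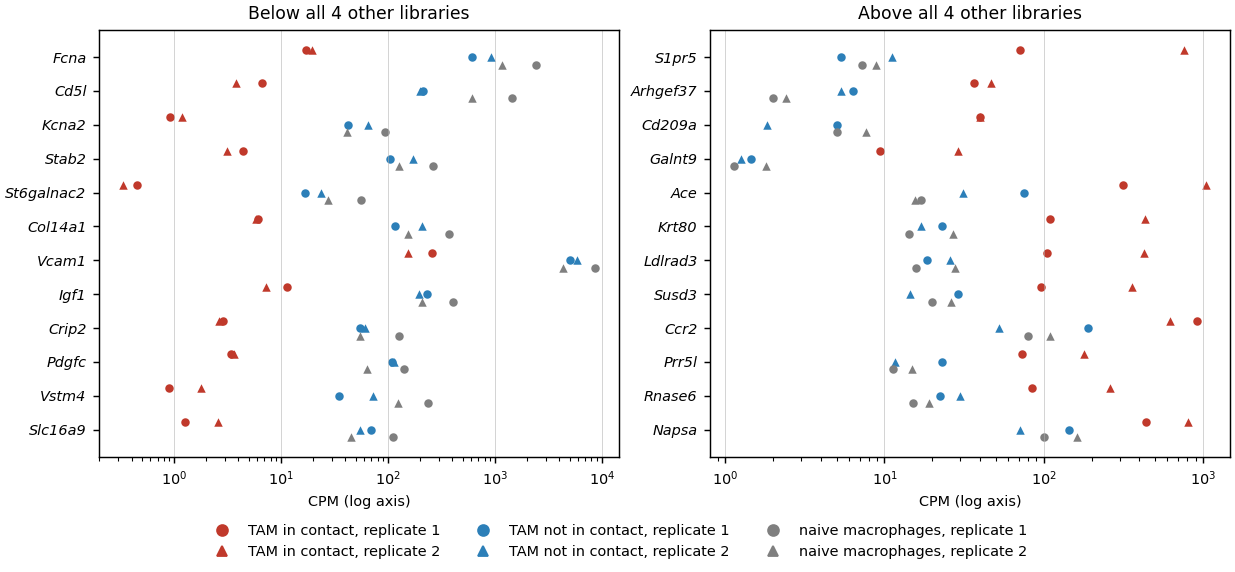
CPM (log axis) of the 12 genes with the widest gap below and the 12 with the widest gap above all 4 other macrophage libraries, with 1 point per library. TAM in contact (red) lies to the left of all other points for Fcna at 17.3 and 19.3 CPM and to the right for S1pr5 at 71.5 and 764 CPM.

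Genes of iron and heme handling, the work of macrophages that take up red cells, lay in the same set. Of 18 list members 11 lay below and 0 above (median log2 fold change -1.33), and 0 passed edgeR's test. Over all genes that met the CPM minimum 14.7% lay below and 12.6% above. Cd163, the receptor of haemoglobin bound to haptoglobin (chr6:124304656-124330527, plus strand), had 8.47 and 7.14 CPM in TAM in contact, against 79.2 and 516 CPM in GFP- TAM and 1256 and 568 CPM in naive macrophages (-5.96 ± 1.00, adjusted p = 0.101). The heme oxygenase gene Hmox1 (chr8:75093621-75100589, plus strand) had 147 and 162 CPM in TAM in contact, against 662 and 1464 CPM in GFP- TAM and 3880 and 1236 CPM in naive macrophages (-3.33 ± 0.67, adjusted p = 0.134). The iron exporter gene Slc40a1 (chr1:45908068-45926523, minus strand) had 312 and 196 CPM in TAM in contact, against 2974 and 3353 CPM in GFP- TAM and 8043 and 3632 CPM in naive macrophages (-4.0 ± 0.58, adjusted p = 0.0786). These 3 genes were named for lying outside the range, so their separation from the rest adds no support. DESeq2 called each lower, from the same libraries and with the false calls given above. Spic, the transcription factor gene induced by heme, had 102 and 39.7 CPM in TAM in contact against at least 340 CPM in the others, and Tfrc, the transferrin receptor gene, 35.1 and 21.0 CPM against at least 44.3 CPM. Of erythroid markers, 4 of 18 (22.2%) lay below and 0 above. Without TAM in contact replicate 1 or without TAM not in contact replicate 1, 11 lay below. The erythropoietin receptor gene Epor, which fell to 2.94 and 2.99 CPM in TAM in contact, had 48.0 and 60.9 CPM in GFP- TAM and 84.6 and 37.7 CPM in naive macrophages (-4.19 ± 0.44, adjusted p = 0.0477). The summed CPM of the erythroid list was 302 and 159 in TAM in contact, 304 and 445 in GFP- TAM, and 750 and 593 in naive macrophages, and its part in these values was not tested.

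Uptake and digestion genes followed in part, where 14.7% of all genes over the CPM minimum lay below and 12.6% above. In the efferocytosis list, on the clearing of dying cells, 8 of 21 genes lay below and 1 above (median -0.57, with Stab2 called lower). Without replicate 1 of TAM in contact 9 lay below and 5 above, and without replicate 1 of TAM not in contact 8 and 5. Mertk, the kinase receptor that recognises dying cells through its ligand Gas6, had 42.7 and 15.6 CPM in TAM in contact, 446 and 419 CPM in GFP- TAM and 682 and 340 CPM in naive macrophages (-3.94 ± 0.59, adjusted p = 0.0867). Gas6 had 8.56 and 7.07 CPM in TAM in contact against at least 46.8 CPM in the others (-3.39 ± 0.58, adjusted p = 0.102). The receptor and its ligand were thus low in the same 2 libraries, which the rule requires of any gene below. In the lysosome list 16 of 31 genes lay below and 1 above (median -0.82), and 12 lay below with TMM-scaled CPM. The cathepsin gene Ctsf fell to 4.83 and 3.96 CPM in TAM in contact, against 36.9 and 33 CPM in GFP- TAM and 94.6 and 52.7 CPM in naive macrophages (-3.44 ± 0.35, adjusted p = 0.0477). The more abundant Ctsd had 1254 and 916 CPM in TAM in contact, 8607 and 5407 CPM in GFP- TAM and 10340 and 5797 CPM in naive macrophages (-2.71 ± 0.55, adjusted p = 0.135). Of 19 complement genes 9 lay below and 0 above (median -1.93, Fcna called lower), among them the C1q gene C1qa with 459 and 61.6 CPM in TAM in contact against at least 839 CPM in the others, and the properdin gene Cfp with 279 and 147 CPM against at least 1056 CPM. Scavenger and lectin receptors had 8 of 24 below and 1 above (median -0.29, Mrc1 and Stab2 called lower). Without replicate 1 of TAM in contact 10 lay below and 4 above, and without replicate 1 of TAM not in contact 11 and 4.

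Several genes of secreted growth factors and 2 of co-receptors were also low. Over all genes that met the CPM minimum 14.7% lay below and 12.6% above. Of 14 growth factor genes 8 lay below and 0 above (median -0.76), and 2 fell. Among the 21 tested, 16 log2 fold changes were negative and 5 positive, from -4.83 to 4.51. Igf1, the insulin-like growth factor gene (chr10:87858265-87937042, plus strand), fell to 11.3 and 7.26 CPM in TAM in contact, against 234 and 195 CPM in GFP- TAM and 408 and 208 CPM in naive macrophages (-4.72 ± 0.45, adjusted p = 0.0477). The platelet-derived growth factor gene Pdgfc (chr3:81036416-81214040, plus strand) fell to 3.44 and 3.63 CPM in TAM in contact, against 110 and 113 CPM in GFP- TAM and 142 and 63.8 CPM in naive macrophages (-4.83 ± 0.44, adjusted p = 0.0477). Neither gene separated the other groups from each other. The stem cell factor gene Kitl and the bone morphogenetic protein gene Bmp2, with 0.967 and 0.308 CPM and 1.96 and 0.475 CPM in TAM in contact, had at least 13.5 and 15.5 CPM in the others and did not pass (adjusted p = 0.0939 and 0.147). Both eligible co-receptor genes for GDNF family ligands, neurotrophic factors, fell. Of the 4 genes of that list tested, 3 had a negative log2 fold change and 1 a positive one (3.31). Gfra2, the co-receptor of neurturin, had 1.30 and 0.997 CPM in TAM in contact, against 23 and 35.2 CPM in GFP- TAM and 121 and 56.7 CPM in naive macrophages (-5.38 ± 0.49, adjusted p = 0.0477). Gfra4, the co-receptor of persephin, had 0.112 and 0.0949 CPM in TAM in contact, from 5 and 4 counts, against 0.629 and 1.55 CPM in GFP- TAM and 43.8 and 31.9 CPM in naive macrophages. Its log2 fold change was -8.31 ± 0.66 over naive macrophages (adjusted p = 0.0425) and -3.31 ± 0.58 over TAM not in contact (adjusted p = 0.133). On this scale TAM not in contact lay nearer to TAM in contact than to naive macrophages.

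Among the remaining genes with the widest gaps or changes, several fell by a like size. The sialyltransferase gene St6galnac2 had 0.450 and 0.332 CPM in TAM in contact, 16.7 and 23.9 CPM in GFP- TAM and 56.1 and 27.3 CPM in naive macrophages (-6.12 ± 0.51, adjusted p = 0.0477). Vstm4, of a membrane protein with an immunoglobulin-like domain, had 0.899 and 1.80 CPM in TAM in contact, 34.9 and 71.7 CPM in GFP- TAM and 239 and 124 CPM in naive macrophages (-6.08 ± 0.64, adjusted p = 0.0477). The transcription factor gene Klf15 had 0.180 and 0.308 CPM in TAM in contact, 4.01 and 8.60 CPM in GFP- TAM and 37.7 and 22 CPM in naive macrophages (-5.70 ± 0.63, adjusted p = 0.0496). In these 3 genes TAM not in contact lay between TAM in contact and naive macrophages. The ubiquitin-like modifier gene Ubd, the collagen gene Col14a1 and the LIM protein gene Crip2 also fell, with at most 0.629, 6.05 and 2.85 CPM in TAM in contact and at least 12.9, 116 and 54.8 CPM in the others. For these the other groups overlapped. Slc16a9, of a monocarboxylate transporter, had at most 2.59 CPM in TAM in contact against at least 45.4 CPM elsewhere and did not pass (adjusted p = 0.0644).

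Of macrophage transcription factor genes 7 of 29 lay below (24.1%) and 4 above (13.8%), with Klf15 called lower and a median of 0.36. Over all genes that met the CPM minimum the shares were 14.7% and 12.6%, so the upper share was near that of all genes. In this list 11 lay above without TAM in contact replicate 1 and 8 without TAM not in contact replicate 2. Those below included Cebpa, Klf15, Maf, Rxra, Spic and Tfec, and above were Irf5, Runx1, Runx3 and Spi1, the gene of PU.1, a factor that macrophages and their precursors need. The median turned to -0.25 without TAM in contact replicate 2. Recognition letters of several factors were counted in RefSeq promoters of GRCm38.p6, from 250 bases before to 50 after the start. Those of PU.1 and MAF are given first, since Spi1 and Maf went to opposite sides. The PU.1 core GAGGAA, on either strand, was in 25.5% of 1559 promoters of the lower set, 27.6% of 1342 of the upper set, 27.5% of those of genes over the CPM minimum and 28.3% of all promoters. Among genes below by at least 4-fold, 72 of which matched, it was in 32.0% of 97 promoters. The MAF half-site TGCTGA was in 17.4% of the lower set, 14.5% of the upper set, 22.7% of promoters of genes below by at least 4-fold, 15.1% of those of genes over the CPM minimum and 19.5% of all promoters. For the MAF half-site the lower set's share thus lay above that of genes over the CPM minimum and below that of all promoters. Shares of the other motifs counted are given for genes below by at least 4-fold, then for genes over the CPM minimum. C/EBP had 3.09% (3 promoters) and 8.62%, AP-1 7.22% and 5.21%, and the nuclear receptor half-site 15.5% and 12.2%. RUNX had 14.4% and 12.9%, KLF 66.0% and 62.7%, and GATA 9.28% and 6.26%. Shown are the genes with the widest gap on each side that have 1 promoter in that table, 2 below (Fcna, minus strand of chr2:25627925-25628224, and Cd5l, plus strand of chr3:87357631-87357930) and 2 above (S1pr5, minus strand of chr9:21248394-21248693, and Cd209a, minus strand of chr8:3748935-3749234), written 5′ to 3′ with the PU.1 core on either strand in capitals.
Fcna: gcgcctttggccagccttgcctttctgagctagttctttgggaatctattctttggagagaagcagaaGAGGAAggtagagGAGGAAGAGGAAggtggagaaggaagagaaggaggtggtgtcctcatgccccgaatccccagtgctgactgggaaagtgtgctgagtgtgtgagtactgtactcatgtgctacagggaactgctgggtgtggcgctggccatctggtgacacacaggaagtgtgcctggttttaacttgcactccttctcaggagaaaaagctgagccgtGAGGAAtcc
Cd5l: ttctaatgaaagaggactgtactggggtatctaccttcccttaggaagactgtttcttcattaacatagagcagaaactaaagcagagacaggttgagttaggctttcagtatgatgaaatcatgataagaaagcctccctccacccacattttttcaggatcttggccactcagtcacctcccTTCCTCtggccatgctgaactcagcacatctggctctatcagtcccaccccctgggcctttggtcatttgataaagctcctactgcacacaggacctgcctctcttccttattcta
S1pr5: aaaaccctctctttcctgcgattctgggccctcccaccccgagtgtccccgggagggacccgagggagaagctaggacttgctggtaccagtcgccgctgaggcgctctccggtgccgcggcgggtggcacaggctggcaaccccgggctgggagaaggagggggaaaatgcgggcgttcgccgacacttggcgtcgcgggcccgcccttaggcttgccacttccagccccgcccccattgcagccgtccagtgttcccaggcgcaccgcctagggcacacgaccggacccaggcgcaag
Cd209a: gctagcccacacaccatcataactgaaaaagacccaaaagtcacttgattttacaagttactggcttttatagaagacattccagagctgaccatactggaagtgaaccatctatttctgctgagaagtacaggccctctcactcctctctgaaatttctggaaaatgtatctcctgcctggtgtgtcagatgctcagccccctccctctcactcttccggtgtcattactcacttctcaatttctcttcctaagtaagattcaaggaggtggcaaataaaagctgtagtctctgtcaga
Fcna holds 4 matches, Cd5l 1, and S1pr5 and Cd209a 0. A match describes the letters in this window and is not a binding site.

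On the upper side 1 gene rose. Arhgef37 (ENSMUSG00000045094.7, chr18:61491657-61536594, minus strand) had 36.3 and 47.0 CPM in TAM in contact, against 6.33 and 5.31 CPM in GFP- TAM and 2.00 and 2.39 CPM in naive macrophages. Its log2 fold change was 3.63 ± 0.26 over the 4 others (adjusted p = 0.0477), 2.86 ± 0.32 over TAM not in contact (adjusted p = 0.065) and 4.41 ± 0.35 over naive macrophages (adjusted p = 0.0425). All 3 groups were apart, with TAM not in contact in the middle.

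S1pr5, a receptor of sphingosine-1-phosphate that guides cells out of tissues (ENSMUSG00000045087.8, chr9:21242912-21248443, minus strand), had the widest gap above. The values were 71.5 and 764 CPM in TAM in contact, against 5.32 and 11.2 CPM in GFP- TAM and 7.25 and 8.83 CPM in naive macrophages. Both TAM in contact libraries were above every other, but they differed 10.7-fold from each other, more than the 6.39-fold between the lower of them and the nearest other library. The gene did not pass (5.80 ± 0.90, adjusted p = 0.09). Cd209a, a lectin gene of dendritic cells and monocytes (chr8:3743397-3748984, minus strand), had even values, 40.0 and 39.8 CPM in TAM in contact, 5.03 and 1.84 CPM in GFP- TAM and 5.04 and 7.68 CPM in naive macrophages (3.17 ± 0.43, adjusted p = 0.0733). Replicate 2 of TAM in contact was the higher by 3-fold or more for Galnt9 (9.37 and 28.8 CPM, others at most 1.80 CPM), Krt80 (109 and 434 CPM, others at most 26.8 CPM), Ldlrad3 (105 and 429 CPM, others at most 27.8 CPM), Susd3 (95.6 and 360 CPM, others at most 28.8 CPM) and Rnase6 (84.2 and 261 CPM, others at most 29.6 CPM). Prr5l had 73.4 and 179 CPM against at most 23.1 CPM, and the aspartic protease gene Napsa 439 and 813 CPM against at most 162 CPM. None of these 7 passed edgeR's test (adjusted p between 0.0744 and 0.102). DESeq2 called each higher, from the same libraries and with the false calls given above.

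Of 20 monocyte genes 6 lay above (Ace, Ccr2, Gpr141, Itgal, Plac8 and Spn) and 0 below, beside 12.6% and 14.7% of all genes over the CPM minimum. The other members lay within the range, 0 were called, and the median was 1.60. Ccr2, the chemokine receptor by which classical monocytes leave the marrow (chr9:124101950-124113557, plus strand), had 925 and 618 CPM in TAM in contact, against 191 and 52.4 CPM in GFP- TAM and 79.7 and 110 CPM in naive macrophages (2.92 ± 0.52, adjusted p = 0.112). Plac8 had 773 and 481 CPM in TAM in contact against at most 219 CPM in the others. Ace, the angiotensin-converting enzyme gene that is high in patrolling monocytes (chr11:105967945-105989964, plus strand), had 317 and 1047 CPM in TAM in contact, 75.4 and 31.2 CPM in GFP- TAM and 16.9 and 15.7 CPM in naive macrophages (4.63 ± 0.59, adjusted p = 0.0663). Replicate 1 was the higher for Ccr2 and Plac8 and replicate 2 for Ace. The receptor gene Gpr141 was even, with 284 and 314 CPM in TAM in contact against at most 136 CPM in the others (1.95 ± 0.26, adjusted p = 0.0716). The summed CPM of the monocyte list was 11490 and 11950 in TAM in contact, 4903 and 6044 in GFP- TAM, and 5523 and 8727 in naive macrophages. With single libraries left out 6 to 12 members lay above, 11 without TAM in contact replicate 1 and 12 without TAM not in contact replicate 1.

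**Figure D3:**
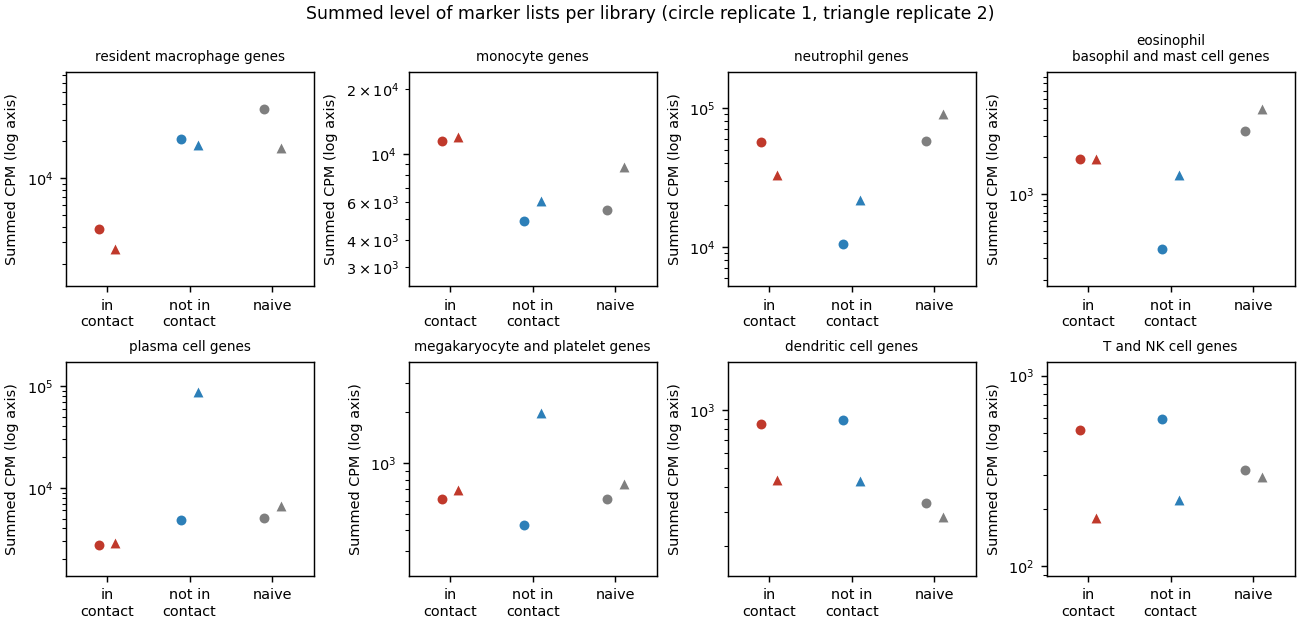
Summed CPM (log axis) of marker lists in each macrophage library, for TAM in contact, TAM not in contact and naive macrophages, with circles for replicate 1 and triangles for replicate 2. In TAM in contact the sum of resident macrophage genes was the lowest (3813 and 2616) and that of monocyte genes the highest (11490 and 11950) of the groups.

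Adhesion genes lay on both sides, as did 12.6% (above) and 14.7% (below) of all genes over the CPM minimum. Of 27 integrin and adhesion genes 6 lay above (Cd47, Icam2, Itga4, Itga8, Itgal and Itgb7) and 2 below (Itgad and Vcam1), and 11 lay above without TAM not in contact replicate 1. Itga4 had 184 and 296 CPM in TAM in contact, 100 and 55.2 CPM in GFP- TAM and 43.2 and 42.5 CPM in naive macrophages (2.15 ± 0.33, adjusted p = 0.09), and its partner Itgb7 had 234 and 556 CPM in TAM in contact against at most 98.4 CPM (2.43 ± 0.41, adjusted p = 0.102). The ligand Vcam1 was on the lower side, as given above. Itgad had 65.2 and 11.5 CPM in TAM in contact against at least 432 CPM in the others (-3.80 ± 0.81, adjusted p = 0.147). Itgam, of the CD11b used in the sort, lay within the range, with 215 and 232 CPM in TAM in contact, 73.0 and 84.0 CPM in GFP- TAM and 245 and 331 CPM in naive macrophages.

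Of the interleukin 6 and STAT3 list 7 of 18 genes lay above (Bcl6, Il10ra, Jak1, Jak2, Lifr, Ptpn6 and Stat3) and 2 below (Il10rb and Il11ra1), with a median of 0.77 and 0 called, and 13 lay above without TAM not in contact replicate 2. These shares were 38.9% above and 11.1% below, beside 12.6% and 14.7% of all genes over the CPM minimum. Stat3, the transcription factor downstream of the interleukin 6 receptor (chr11:100885098-100939540, minus strand), had 648 and 712 CPM in TAM in contact, 439 and 331 CPM in GFP- TAM and 300 and 348 CPM in naive macrophages (1.03 ± 0.26, adjusted p = 0.19). The leukaemia inhibitory factor receptor gene Lifr had 27.4 and 44.3 CPM in TAM in contact against at most 15.8 CPM in the others (2.08 ± 0.36, adjusted p = 0.102). The cytokine genes that the study names did not meet the rule. Il6 had 2.34 and 0.498 CPM in TAM in contact, 1.76 and 27.1 CPM in GFP- TAM and 0.832 and 1.66 CPM in naive macrophages, and was under the CPM minimum. Tnf had 27.0 and 66.4 CPM in TAM in contact, 23.7 and 909 CPM in GFP- TAM and 15.6 and 17.2 CPM in naive macrophages (-0.79 ± 1.19, adjusted p = 0.772), and the log2 fold change was 1.30 once TAM not in contact replicate 2 was dropped. The receptor gene Tnfrsf1b lay above, with 1137 and 2370 CPM in TAM in contact against at most 760 CPM in the others (1.99 ± 0.41, adjusted p = 0.145). In the inflammatory cytokine list 3 of 13 (23.1%) lay below and 0 above (median 0.04), and 6 lay below without TAM in contact replicate 1. Il1a, of interleukin 1 alpha, had 3.55 and 2.16 CPM in TAM in contact, 50.5 and 660 CPM in GFP- TAM and 47.5 and 21.0 CPM in naive macrophages (-5.18 ± 1.21, adjusted p = 0.169).

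Chemokines and their receptors went to both sides, near the shares of all genes over the CPM minimum, 12.6% above and 14.7% below. The shares were 11.8% and 17.6% for chemokines and 13.6% and 18.2% for chemoattractant receptors. Of chemokine genes 2 of 17 lay above and 3 below, with 6 below without TAM in contact replicate 1 and 1 without replicate 1, or without replicate 2, of TAM not in contact. Ccl9 had 238 and 383 CPM in TAM in contact against at most 107 CPM in the others, and Ccl6 560 and 1298 CPM against at most 369 CPM (adjusted p = 0.126 and 0.178). Below were Ccl7, Ccl8 and Ppbp, each at 2.18 CPM or less in TAM in contact. Of chemoattractant receptors 3 of 22 lay above (Ccr2, Gpr132 and S1pr5) and 4 below. The eotaxin receptor gene Ccr3 had 14.4 and 21.7 CPM in TAM in contact, 169 and 488 CPM in GFP- TAM and 1083 and 453 CPM in naive macrophages (-4.70 ± 0.71, adjusted p = 0.0892). Gpr132 had 35.6 and 36.5 CPM in TAM in contact, 19.2 and 24.4 CPM in GFP- TAM and 3.69 and 5.43 CPM in naive macrophages. It passed over naive macrophages (3.14 ± 0.31, adjusted p = 0.0425) and not over TAM not in contact (0.74 ± 0.29, adjusted p = 0.275). In lipid mediator genes 4 of 21 lay above and 5 below, the lower ones including the cyclooxygenase gene Ptgs1 (98.7 and 52.5 CPM in TAM in contact, others at least 239 CPM) and the thromboxane synthase gene Tbxas1 (63.7 and 39.3 CPM, others at least 215 CPM).

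Lists of energy metabolism and synthesis had members on both sides, as did 12.6% (above) and 14.7% (below) of all genes over the CPM minimum. Of 27 glycolysis and hypoxia genes 5 lay above (Hk2, Pfkfb3, Pfkfb4, Pfkl and Pfkp) and 1 below (P4ha1), with a median of 0.28, and 9 or 10 lay above without TAM in contact replicate 1 or naive replicate 2. The hexokinase gene Hk2 had 76.9 and 65.1 CPM in TAM in contact against at most 50.7 CPM in the others (0.73 ± 0.20, adjusted p = 0.21). Of 26 respiratory chain genes 6 lay above and 6 below, or 3 below with TMM-scaled CPM and 11 above without TAM not in contact replicate 1. All but 1 of the 6 below are encoded in mitochondrial DNA. Mitochondrial transcripts took 0.142% and 0.18% of counts in TAM in contact, 0.353% and 0.876% in GFP- TAM and 0.306% and 0.209% in naive macrophages. Of 24 ribosome biogenesis and MYC target genes 8 lay below and 0 above (median -0.32), and 14 lay below without TAM in contact replicate 1 or naive replicate 1. Myc itself had 124 and 66.4 CPM in TAM in contact, 165 and 2801 CPM in GFP- TAM and 155 and 208 CPM in naive macrophages. In the list of ER stress and secretion 7 of 29 lay below and 1 above, and 14 lay below without TAM in contact replicate 1 and 12 without naive replicate 1.

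The counts of further lists were as follows, beside 12.6% above and 14.7% below over all genes that met the CPM minimum. Of 35 interferon-stimulated genes, 26 immediate early and heat shock genes and 19 neutrophil genes, 0 lay on either side, and of 31 cell cycle genes 1 lay below and 0 above. Leaving out a library loosens the rule, and some counts then grew. For interferon-stimulated genes the TAM in contact libraries also lay on opposite sides, with summed CPM of 8967 and 2281 against 2538 to 7553 in the others. Without TAM in contact replicate 1, 16 interferon-stimulated genes and 12 cell cycle genes lay below, and without replicate 2, 23 interferon-stimulated genes lay above. Without TAM not in contact replicate 1, 5 cell cycle genes lay below. Without TAM not in contact replicate 2, 17 immediate early and heat shock genes lay above. Class I antigen presentation had 1 of 18 above and 1 below, and class II with costimulation 1 of 14 above and 2 below. Without TAM in contact replicate 2, 8 genes of class I and 8 of class II lay above, and without TAM not in contact replicate 1, 9 of each. The Fc receptor list had 1 of 14 above and 4 below. These counts include Fcna, a lectin gene and not an Fc receptor gene, which was the only member called lower. NF-kB genes had 2 of 26 above and 0 below (4 to 7 above without any 1 of the TAM libraries), TNF receptors 2 of 15 above and 1 below, and Toll-like and inflammasome sensors 2 of 27 above and 1 below. Lipid handling had 2 of 25 above and 6 below (10 below without TAM in contact replicate 2), checkpoint and costimulation genes 1 of 20 above and 4 below (7 below without TAM in contact replicate 1), matrix genes 0 of 20 above and 4 below (Col14a1 called lower), and alternative activation genes 1 of 14 on each side (Mrc1 called lower).

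**Figure D4:**
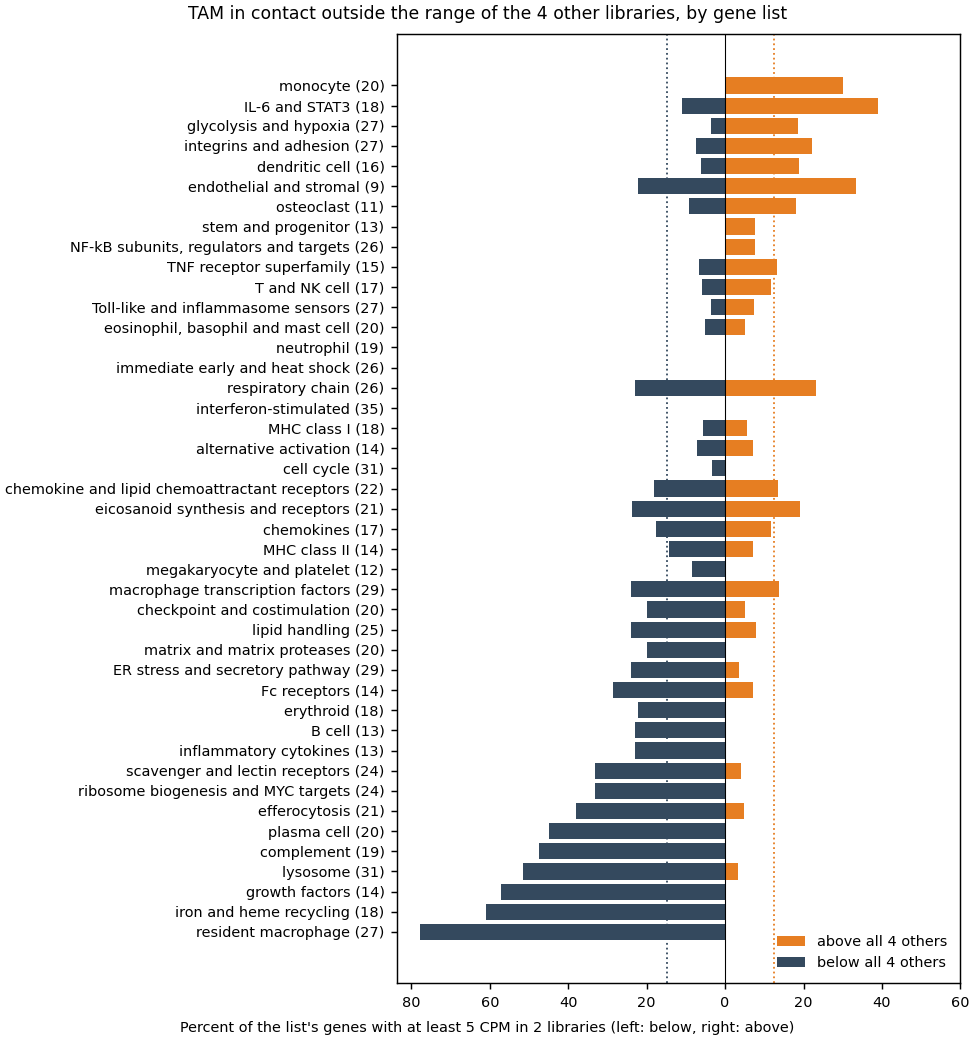
Share of genes over the CPM minimum (number in brackets), for lists with at least 9 such genes, whose TAM in contact values lie above (right) or below (left) all 4 other macrophage libraries. Dotted lines mark the shares over all such genes, 12.6% above and 14.7% below, and the longest bars are 77.8% below for resident macrophage genes and 38.9% above for the interleukin 6 and STAT3 list.

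Some markers of other marrow cells lay outside the range in TAM in contact, and their part in the results was not tested. Of all genes over the CPM minimum 12.6% lay above and 14.7% below. Plasma cell markers were lowest in TAM in contact, where 9 of 20 lay below and 0 above (14 below without TAM in contact replicate 2), with summed CPM of 2749 and 2875 in TAM in contact, 4818 and 86200 in GFP- TAM and 5018 and 6679 in naive macrophages. Their defining genes were present in every library: Igkc had 223 and 298 CPM in TAM in contact, 1063 and 23690 CPM in GFP- TAM and 1364 and 1768 CPM in naive macrophages, and Jchain 23.5 and 54.6 CPM in TAM in contact against at least 104 CPM. The GFP+ libraries thus held the least plasma cell transcript of the 6. Neutrophil markers summed to 56910 and 33160 CPM in TAM in contact, 10430 and 21730 CPM in GFP- TAM and 57480 and 90100 CPM in naive macrophages, and those of eosinophils, basophils and mast cells to 1926 and 1928 CPM in TAM in contact, 352 and 1417 CPM in GFP- TAM and 3256 and 4937 CPM in naive macrophages, so both lay between the other groups. B cell markers summed to 214 and 202 CPM in TAM in contact, 537 and 607 CPM in GFP- TAM and 958 and 984 CPM in naive macrophages (3 of 13 below, 0 above, and 6 below without TAM not in contact replicate 1). T and NK cell markers had 2 of 17 above (11.8%) and 1 below (5.88%) with sums of 178 to 591 CPM, and 12 above without TAM in contact replicate 2. Dendritic cell markers had 3 of 16 above and 1 below with sums of 280 to 885 CPM, and 8 above without that library. Stem and progenitor markers had 1 of 13 above and 0 below with sums of 244 to 660 CPM. Megakaryocyte and platelet markers had 0 of 12 above and 1 below with sums of 431 to 1991 CPM, endothelial and stromal markers 3 of 9 above and 2 below with sums of 138 to 336 CPM, and osteoclast markers 2 of 11 above and 1 below with sums of 2370 to 6153 CPM.

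The sets were also described by features that the rule did not use. The median exon length was 4409 bases above, 4414 below and 4548 over all genes that met the CPM minimum, and 98.5%, 96.8% and 97.5% were protein coding. Immunoglobulin segments numbered 20 below and 0 above, out of 63 over the CPM minimum, where 14.7% of all such genes lay below. Of genes found in the separately scaled plasma cell table, 67.1% of the upper set, 46.7% of the lower set and 54.8% of all had at least 5 CPM in both plasma cell libraries. Yet the upper genes with the widest gaps were low there: S1pr5 had 0.147 and 0.0522 CPM, Arhgef37 0.306 and 0.0522 CPM, Cd209a 0.159 and 0.157 CPM and Ace 1.36 and 0.183 CPM in plasma cells. Rnase6 and Napsa, with 86.3 and 92.7 CPM and 58.7 and 82.9 CPM, were exceptions among the 12 widest gaps above. In the order of the other groups, TAM not in contact and naive macrophages overlapped for 814 of the 1303 genes above (62.5%) and 977 of the 1519 below (64.3%), beside 53.4% of all genes over the CPM minimum. Of the 95 genes below by at least 4-fold, 60 had overlapping values in the other groups, 26 had both values of TAM not in contact below those of naive macrophages and 9 had them above.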

How the data were processed

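Libraries of RNA from sorted bone marrow macrophages were made with SMART-Seq v4 Ultra Low Input, per the labels' protocols, which reads whole transcripts and leaves the strand unmarked. The authors deposited integer read counts of each gene for 6 macrophage libraries, and for 2 plasma cell libraries in a separate table used only beside them. The submitters' processing notes list GRCm38, mm10, STAR, featureCounts and DESeq2 1.26. The sources used here do not give the annotation, whether counting used strand, or how reads with several matches were handled. Of 47643 gene identifiers 47224 matched GENCODE M21 (GRCm38), which gave symbols and coordinates, counted from 1.

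CPM is per library total count. Tests used edgeR 4.0.16 in R 4.3.3 (quasi-likelihood F test, package default quasi-dispersion, TMM, filterByExpr with minimum count 10 and minimum total 15, 15522 genes, 3 residual degrees of freedom, Benjamini-Hochberg adjustment over all genes, threshold 0.05), with limma 3.58.1 and DESeq2 1.42.0 as alternatives. On simulated counts of 14941 genes in which 100 genes were changed by a log2 of 2 and 100 by 4, edgeR found 44 and 87 of them and made 2 false calls. DESeq2 found 77 and 99 and made 103. These counts were drawn from a negative binomial model with edgeR's own estimates of spread. Apart from the changed genes, each gene had 1 mean for all groups, unlike the real libraries. Genes of 45 lists, of which 12 are marker lists, were described by counts and medians, and the result of 1 list is not reported here. With 2 libraries against 4 an exact one-sided permutation test cannot go under p = 0.0667. Members, lists and rules were chosen with earlier results of these data known.

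Named are the 12 genes with the widest gap in each direction, up to 8 called genes with the largest change in each direction at a mean log2 CPM of 3 or more, up to 4 members outside the range and 2 called members per list, the sort and cytokine genes, and the genes at the edge of the rule. Where a gene had 0 counts, up to 3 cannot be told from it (0.064 to 0.104 CPM). Such limits cover counting error only, since reads carry no molecular identifiers. The mouse numbers of the labels were not used to pair libraries in the main test, since sex-linked genes contradict them for mouse 2.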

Additional observations from a re-analysis of the deposited data

How the results depend on the processing

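The main counts were 1 gene higher and 31 lower by edgeR's test. They were 434 and 946 with DESeq2, 398 and 865 with DESeq2 without immunoglobulin genes (added after seeing the data), 1 and 6 with limma-voom, 8 and 50 with bias-adjusted quasi-dispersions, 618 and 1037 with no filter on low counts, 5 and 42 with a stricter filter, and 0 and 13 with 2 groups. They were 0 and 0 both with RLE size factors and with immunoglobulin genes left out, where the smallest adjusted p was 0.0515 and 0.053 and 2420 and 2393 genes had an unadjusted p under 0.05. With single libraries left out, which leaves 1 library in a group that is then assumed to vary like the others, the counts ranged from 0 to 547 higher and from 0 to 895 lower. Calls remained in the fit without TAM not in contact replicate 1 and in 0 of the other 5.

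The labels assign both TAM libraries of a number to 1 mouse, which the sex-linked genes contradict for mouse 2 and do not test for mouse 1. Deviations of same-numbered libraries correlated at 0.152 between the TAM groups, and at 0.0393 and 0.0888 with naive libraries, which share no animal with them. The numbers were not used to pair libraries in the main test. With the replicate number as a block 11 genes were called higher and 75 lower, 31 of them among the 32.

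Of genes outside the range 1303 lay above and 1519 below. A margin of at least 2-fold left 33 and 253, and a minimum of 20 CPM left 1098 and 1008. Leaving out single libraries gave 1418 to 2325 above and 1643 to 2622 below, the highest without TAM in contact replicate 1. Directions turned for Tnf (1.30) and the matrix list (median 0.11, and -1.47 without TAM in contact replicate 1) without TAM not in contact replicate 2, for alternative activation (-0.10, up to 0.95 without replicate 2) and dendritic cell genes (-0.35, up to 1.37 without replicate 2) without TAM in contact replicate 1, for macrophage transcription factors (-0.25, up to 0.43 without naive replicate 1) without TAM in contact replicate 2, and for lipid mediators (-0.031) with 2 groups. The endothelial and stromal median, negative in the main result, was 0.040 with limma-voom, 0.73 with a stricter filter and between -1.62 and 0.53 with single libraries left out, the highest without TAM not in contact replicate 2. The cause was not tested.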
